A study of Drosophila melanogaster with 6 samples.

Results

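Embryonic and disc patterning transcription factors are the regulators that divide the fly embryo and the larval imaginal discs into head, trunk, segments, dorsoventral columns and limb regions. Here 58 of them were followed in the outer proliferation centre, the neuroepithelium of the larval optic lobe that produces the medulla, out of 17559 genes in the count table. The 58 genes came from a named list of homeobox, Pax, T-box, LIM, POU, zinc finger and GATA factors, and all 58 were matched by FlyBase symbol. The spalt and disco genes, the spatial and temporal factors of the optic lobe and the lamina factors were not on the list.

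The comparison used 6 libraries of polyadenylated RNA, 3 dorsal and 3 ventral, of Drosophila melanogaster larvae raised at 25 °C. The cells of both groups carried a GFP label and came from late second-instar (late L2) brains labelled female. They were drawn by hand with a glass micropipette in the course of 1 h, and each library pools cells of 3 to 4 brains. The labels give no genotype, GFP driver or agent for either group, and do not say whether the pools are separate collections. The p-values therefore reflect only how these pools vary, which may be technical.

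Library totals ran from 21114019 to 27815885 counted reads. Levels are in CPM, the reads of a gene scaled to the counted reads of its library, and a count of 0 allows at most 0.108 to 0.142 CPM, depending on the library. Such limits take in counting error alone, because the reads carry no molecular identifiers. Of 14 neuroepithelial markers, 13 were at or above 1 CPM in every library, among them the Notch receptor gene N and shg, which encodes E-cadherin. The exception was Rx, with 0 to 224 reads. All 7 neuroblast markers also passed 1 CPM in every library, as did 7 of 11 neuron, 4 of 8 glia and 5 of 6 inner proliferation centre markers. A gene read in these libraries was therefore not assigned to a cell type. The position labels were matched by salm and salr, at 34.5 to 60.7 CPM in dorsal and at most 0.419 CPM in ventral libraries. They were also matched by disco, at 0.631 to 3.61 CPM in dorsal and 32.5 to 61.7 CPM in ventral libraries. These genes were chosen with earlier results of these data known, so they are no independent check of the labels. Ventral replicates 1 and 2 stood apart, with median correlations of 0.950 and 0.959 to the other libraries across 7833 genes, against 0.971 to 0.975 for the rest (Pearson, log2 CPM). The dosage compensation RNA lncRNA:roX2, which is made mainly in males, had 0 reads in dorsal replicate 3, 62 in ventral replicate 2 and 5680 to 16000 in the other libraries, and such reads are unusual for brains labelled female.

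Patterning factors act by binding DNA, usually in combinations, and most are switched on in the embryo by position and then reused in discs and in the nervous system. Several also mark neuron classes: LIM and Zfh factors set motor neuron identity in the embryo, and columnar factors specify neuroblasts. In the optic lobe neuroepithelium the best known positional system is a different one, built from Vsx1, Optix and Rx.

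Most of the listed factors stayed at a few reads per library. A gene was called on where it reached 1 CPM in all 6 libraries, off where it stayed under 1 CPM in all 6, and in between otherwise. By this rule 14 of 58 members (24.1%) were on, 12 (20.7%) in between and 32 (55.2%) off. Over all 17559 genes 39.8% were on, 10.5% in between and 49.7% off. The share of members on was thus below that of the whole table, and the share off was close to it.

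Zfh factors (2 of 2) were on, and so were 5 of 11 limb axis factors, 2 of 4 LIM homeobox factors and 2 of 5 Runt and Odd-skipped factors. Head and eye factors, the trunk factors with their Hox cofactor, and the POU factors had 1 gene on each. None of 4 Pax factors, 6 T-box factors, 5 segment and column factors, 4 forkhead and NK mesoderm factors or 5 Iroquois and GATA factors was on. These counts cover the listed members alone, each in a single group, and they depend on the limit of 1 CPM. At a limit of 5 CPM neither Zfh factor was on. The Pax6 gene toy, which was on, is counted with the head and eye factors and not with the 4 Pax factors. The lowest value of any on gene was 2.07 CPM, of tup in dorsal replicate 3.

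**Figure D1:**
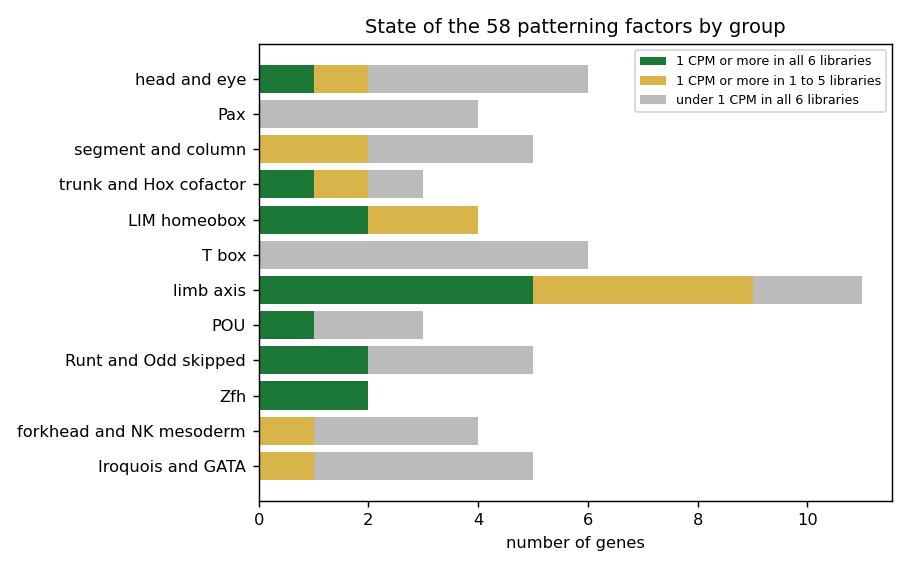
Number of patterning factors (horizontal axis, genes) at 1 CPM or more in all 6 libraries, in 1 to 5 libraries or in none, for 12 groups of factors (vertical axis). The 4 factors grouped as Pax and the 6 listed T-box factors lie wholly in the class under 1 CPM, and both Zfh factors are on. The Pax6 gene toy is counted with the head and eye factors.

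The Hox cofactor gene extradenticle (exd, FBgn0000611, X:15992468-15996509, plus strand, BDGP6) was by far the most abundant member. Its homeodomain protein binds DNA together with Homothorax and the Hox proteins. It stood at 519.5, 525 and 561 CPM in dorsal replicates 1, 2 and 3 and at 519.6, 640.5 and 528 CPM in ventral replicates 1, 2 and 3. The groups overlapped and the 6 values lay within 1.23-fold. Reads of exd made up 54.9% to 66.0% of all member reads in a library. The log2 fold change, dorsal minus ventral, was -0.11 ± 0.16 (SE), with a 95% interval of -0.46 to 0.24 (adjusted p = 1.00, edgeR quasi-likelihood test).

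Per length, in CPM per kilobase of merged exons (RPKM), exd stood at 166 ± 14.4 (SD, n = 6 libraries), above 87.9% of the 6997 genes that were on. The partner gene hth stood at 62.9 ± 14.97 RPKM. Next among the members were danr at 20.5 ± 1.98 and bowl at 20.01 ± 4.25 RPKM, which did not differ beyond their spread and lay near the median of 20.3 RPKM of all genes on. ct (6.79 ± 2.85), Lim3 (6.02 ± 2.51), toy (5.25 ± 3.38) and tup (3.50 ± 1.63) followed, each within the spread of its neighbour. dan (2.47 ± 0.50), zfh1 (1.92 ± 0.79), zfh2 (1.61 ± 1.51), vvl (1.49 ± 1.15), bab2 (1.44 ± 0.51) and run (1.40 ± 0.70 RPKM) followed in this order, each within the spread of the next. bab1, at 0.710 ± 0.189 RPKM, was lowest and stood above 0.943% of the genes that were on.

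**Figure D2:**
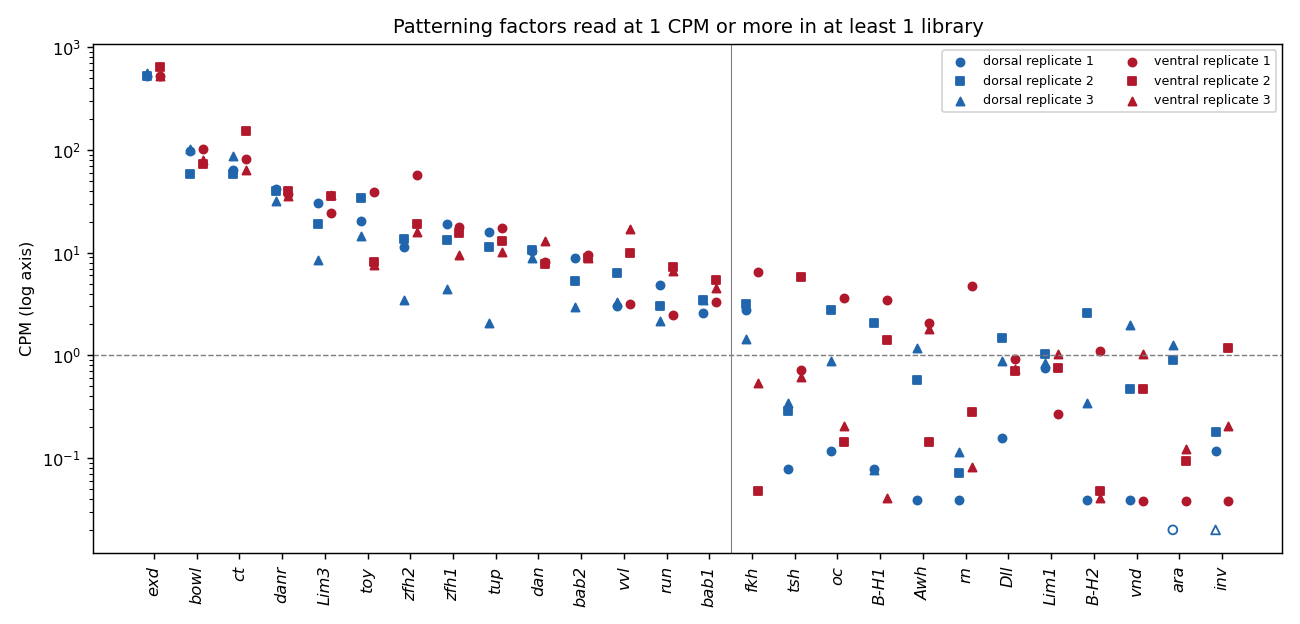
CPM (vertical log axis) of the 26 members that reached 1 CPM in at least 1 library, with dorsal libraries in blue and ventral libraries in red, symbols for replicates and open symbols at the bottom for counts of 0. The 14 genes left of the vertical line lie above the dashed line at 1 CPM in every library, from exd at 519.5 to 640.5 CPM down to bab1 at 2.61 to 5.40 CPM.

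The limb axis group, which here takes in ct, held the largest number of on genes. Several of its genes subdivide the leg and antenna along their length. The distal antenna pair, dan and danr, which encode pipsqueak-domain nuclear proteins of the antenna and eye, was on in both the dorsal and the ventral libraries. danr stood at 41.5, 40.0 and 31.7 CPM in the dorsal and 37.0, 39.8 and 35.3 CPM in the ventral libraries. Its groups overlapped, all 6 values lay within 1.31-fold, and the 95% interval of the log2 fold change was -0.48 to 0.44 (edgeR). dan stood at 10.3, 10.6 and 8.84 CPM in dorsal and 8.19, 7.72 and 13.1 CPM in ventral libraries, also overlapping, with an interval of -0.80 to 0.81.

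The homeobox gene cut (ct), which directs external sense organ fate and dendrite shape, stood at 63.2, 57.95 and 87.7 CPM in dorsal and 82.0, 153 and 63.2 CPM in ventral libraries. Ventral replicate 2 was the highest and the groups overlapped (log2 fold change -0.55 ± 0.32, adjusted p = 1.00, edgeR; -0.083 without that library). The BTB factor genes bab1 and bab2 pattern the tarsus and the ovary. bab2 (FBgn0025525, 3L:1140429-1177276, minus strand) stood at 8.84, 5.36 and 2.96 CPM in dorsal and 9.56, 8.86 and 8.87 CPM in ventral libraries. Its groups did not overlap, but dorsal replicate 1 lay only just under the ventral values, and the log2 fold change of -0.70 ± 0.48 did not pass (adjusted p = 1.00, edgeR). bab1 stood at 2.61, 3.45 and 3.46 CPM in dorsal and 3.28, 5.40 and 4.56 CPM in ventral libraries, with overlapping groups.

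Another 4 limb axis factors were in between. Distal-less (Dll), the gene that starts limb development, reached 1 CPM in a single library, with 4, 41 and 23 reads in dorsal and 24, 15 and 18 reads in ventral libraries. The neighbouring Bar genes B-H1 and B-H2 encode homeodomain proteins of distal leg, eye and bristles. B-H1 had 2, 58 and 2 reads in dorsal replicates 1, 2 and 3, against 91, 30 and 1 on the ventral side. B-H2 had 1, 72 and 9 dorsal reads and 29, 1 and 1 ventral reads. Both Bar genes had their 2 highest counts in dorsal replicate 2 and ventral replicate 1. The zinc finger gene rotund (rn), a tarsal factor, had 125 reads in ventral replicate 1 and 1 to 6 reads in each other library. The homeobox genes al and C15 were off, with 0 to 2 and 0 to 8 reads per library.

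Among head and eye factors, twin of eyeless (toy), a Pax6 gene that acts upstream of eyeless, was on. It stood at 20.2, 33.7 and 14.6 CPM in dorsal and 39.2, 8.10 and 7.56 CPM in ventral libraries. Ventral replicate 1 was higher than every dorsal library and the other two ventral libraries lower, so the spread within the ventral group exceeded the difference between groups (log2 fold change 0.30 ± 0.59, adjusted p = 1.00, edgeR). Without ventral replicate 1 the log2 fold change of toy was 1.50. The head gap gene orthodenticle (oc) was in between, with 3, 77 and 23 reads in dorsal and 95, 3 and 5 reads in ventral libraries. As with the Bar genes, dorsal replicate 2 and ventral replicate 1 had the highest counts. The other head and eye genes, ems, eyg, toe and Six4, had 0 to 11 reads per library.

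The LIM homeobox genes were the only group besides Zfh without an off member. Lim3, which sets motor neuron identity in the embryo, stood at 30.6, 19.1 and 8.57 CPM in dorsal and 24.2, 35.6 and 36.5 CPM in ventral libraries. Its groups overlapped (log2 fold change -0.76 ± 0.40, adjusted p = 1.00, edgeR). tup, the fly Islet gene, stood at 15.8, 11.2 and 2.07 CPM in dorsal and 17.3, 13.0 and 10.1 CPM in ventral libraries, overlapping as well. Both genes were lowest in dorsal replicate 3. Lim1 had 19, 29 and 22 reads in dorsal and 7, 16 and 25 reads in ventral libraries. Arrowhead (Awh), needed in the embryo's abdominal histoblasts, had 1, 16 and 31 reads in dorsal and 54, 3 and 44 reads in ventral libraries.

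Both Zfh genes, which encode large zinc finger and homeodomain proteins, were on. zfh1, a factor of mesoderm and motor neurons, stood at 19.1, 13.3 and 4.46 CPM in dorsal and 17.7, 15.5 and 9.53 CPM in ventral libraries. Its groups overlapped (log2 fold change -0.25 ± 0.49, adjusted p = 1.00, edgeR). zfh2 (FBgn0004607, 4:501810-540874, plus strand) stood at 11.4, 13.6 and 3.50 CPM in dorsal and 56.9, 19.0 and 15.9 CPM in ventral libraries. All 3 ventral libraries lay above all 3 dorsal ones, with ventral replicate 1 far above the rest. The log2 fold change was -1.71 ± 0.57, with the smallest p of all members tested (unadjusted p = 0.0136, adjusted p = 1.00, edgeR). Without ventral replicate 1 it was -0.92. Exons of zfh2 share 2325 bp (18.7%) with Tdg on the opposite strand, which had 2592 to 4309 reads, and the sources used here do not say whether counting used strand. Exons of zfh1 share 315 bp with asRNA:CR45189, which had 0 to 10 reads.

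Of the POU genes, ventral veins lacking (vvl), a factor of trachea, neurons and glia, was on. It stood at 3.04, 6.29 and 3.34 CPM in dorsal and 3.20, 9.85 and 16.9 CPM in ventral libraries. Ventral replicates 2 and 3 were higher than every dorsal library, and ventral replicate 1 lay among the dorsal values (log2 fold change -1.28 ± 0.62, adjusted p = 1.00, edgeR). The POU genes nub and pdm2, which act in embryonic neuroblast timing and in the wing, were off with 2 to 6 and 0 to 12 reads. Runt (run), a pair-rule gene of the Runx family, stood at 4.81, 3.06 and 2.15 CPM in dorsal and 2.48, 7.29 and 6.61 CPM in ventral libraries, with overlapping groups. The Odd-skipped family gene bowl stood at 98.7, 58.1 and 102 CPM in dorsal and 101, 72.7 and 80.4 CPM in ventral libraries. Its groups overlapped, and the 95% interval of its log2 fold change was -0.54 to 0.54 (edgeR).

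Of the trunk factors and their Hox cofactor, exd was on, tsh in between and tio off, and of the 5 segment and column factors 3 were off and 2 in between. The zinc finger gene teashirt (tsh, FBgn0003866, 2L:21828593-21837011, plus strand), a trunk identity factor, had 2, 8 and 9 reads in dorsal and 19, 123 and 15 reads in ventral libraries. All ventral counts were above all dorsal counts, and ventral replicate 2 held 73.9% of its summed CPM. The log2 fold change was -3.35 ± 1.18 (unadjusted p = 0.0172, adjusted p = 1.00, edgeR), and -1.50 without ventral replicate 2. Only ventral libraries had at least 10 reads of tsh, so it entered the test through the group in which it was high. Its paralogue tio had 0 to 5 reads. The engrailed paralogue invected (inv) had 25 reads in ventral replicate 2 and 0 to 5 in each other library. The column genes vnd, ind and Dr specify ventral, intermediate and dorsal neuroblasts of the embryonic nerve cord. vnd had 1, 13 and 51 dorsal reads and 1, 10 and 25 ventral reads, while ind had 0 to 10 and Dr 0 to 5 reads per library. The homeobox gene unpg was off with 0 to 4 reads.

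The remaining groups were off apart from fkh and ara. fork head (fkh), a gut and salivary gland factor, had 70, 88 and 38 dorsal reads and 171, 1 and 13 ventral reads. Its highest and its lowest library were both ventral. The log2 fold change of fkh was 0.042 ± 1.22, and 3.01 without ventral replicate 1 (edgeR). araucan (ara), an Iroquois homeobox gene of the dorsal eye and the notum, had 0, 25 and 33 dorsal reads and 1, 2 and 3 ventral reads, with dorsal replicate 1 under all ventral libraries. Its neighbours caup and mirr had 0 to 14 and 1 to 13 reads, and the GATA genes pnr and grn had 0 to 7 and 0 to 10. The T-box genes H15, mid, Doc1, Doc2, Doc3 and org-1 had 0 to 9 reads per library. Pax genes gsb, gsb-n, Poxn and Poxm had 0 to 8 reads, and croc, tin and bap, of the forkhead and NK mesoderm group, had 0 to 11.

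Taking the 32 off genes as a whole, a library held between 0 and 14 reads of any of them, with a median of 1. No off gene was at 0 reads in all 6 libraries, and 30 of them were at 0 in at least 1. The genes nearest the 1 CPM limit were Lim1, whose top library had 1.04 CPM, on one side and eyg, with at most 0.521 CPM, on the other.

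Where factors belong to families of paralogues, on and off states were compared per length. In the Odd-skipped family bowl was on at 20.01 ± 4.25 RPKM (SD, n = 6), while odd, sob and drm, which lie 165 to 223 kb away on the same arm, were off at means of 0.0228, 0.0224 and 0.00933 RPKM. bowl was the highest of the 4 in 6 of 6 libraries. The genes dan and danr lie 44.5 kb apart and were both on, with danr 5.84 to 11.2 times higher per length in every library. The genes bab1 and bab2, 39.3 kb apart, were also both on, and bab2 was the higher per length in 5 of 6 libraries. Lim3 was on and Lim1 in between, with Lim3 9.41 to 84.2 times higher per length. The pairs nub with pdm2, H15 with mid, eyg with toe, gsb with gsb-n, Poxm with Poxn and tin with bap, and the 3 Doc genes, were off in both or all members. Reads that match 2 paralogues equally well may have been split or dropped, since the sources used here do not describe their handling.

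**Figure D3:**
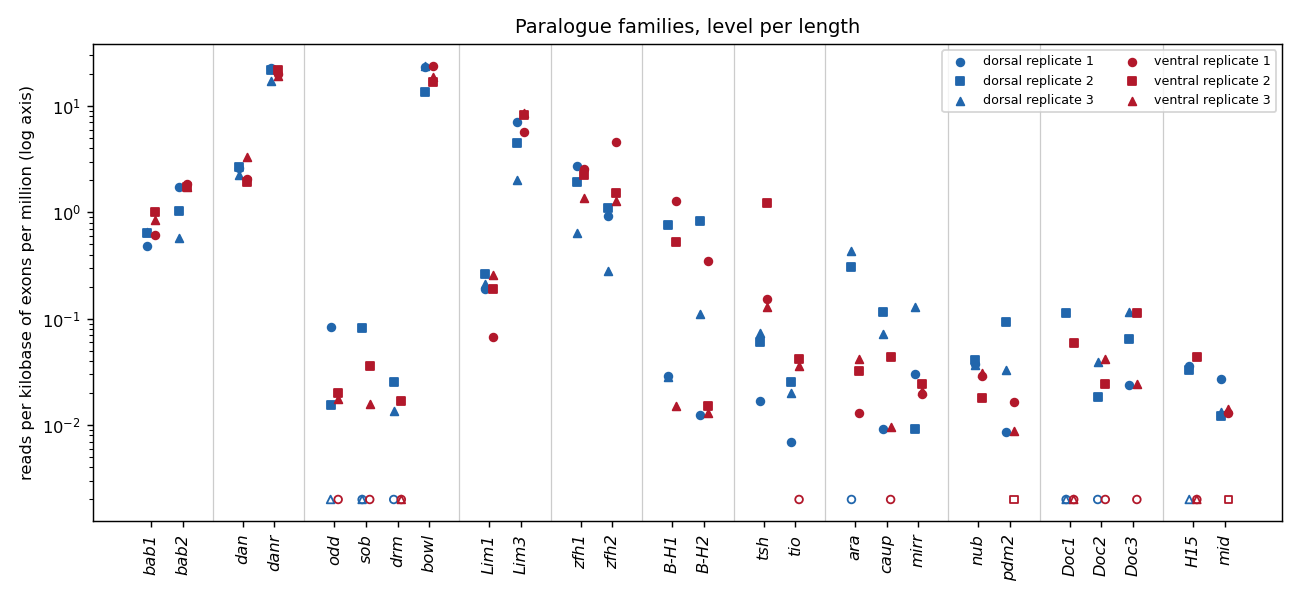
Level per length (RPKM, vertical log axis) for members of 11 families, with dorsal libraries in blue, ventral in red, and open symbols at the bottom for counts of 0. bowl lies near 20.01 while odd, sob and drm lie below 0.1, and danr lies above dan in every library.

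Dorsal and ventral cells did not separate at any of these factors after adjustment. Of the 58 members 22 had enough reads to be tested. With the edgeR quasi-likelihood test none passed at 0.05 after adjustment over 8707 genes, a rule that called 8 genes (0.0919%) over the whole table. At an unadjusted p under 0.05, 2 of 22 members (9.09%) passed, zfh2 and tsh, against 3.2% of all genes tested. Since tsh entered through its high group, it was left out of a second count, 1 of the other 21 (4.76%). Genes that entered in that way were not taken out of the 3.2%, so the sets behind these shares differ. Neither gene stayed under 0.05 in every fit: zfh2 had an unadjusted p of 0.0565 with no filter and 0.099 without ventral replicate 1, and tsh one of 0.222 without ventral replicate 2 and 0.0575 without dorsal replicate 1, all from edgeR and with an adjusted p of 1.00 for both genes in the test above. DESeq2 also called 0 members, where it called 0.322% of all genes, and 3 members had an unadjusted p under 0.05 (zfh2, tsh and vvl). For zfh2 DESeq2 gave an adjusted p of 0.155 and for tsh 0.307. limma-trend on the deposited normalized counts called 0 as well, with zfh2, tsh and Lim3 under 0.05 unadjusted. The edgeR fit without ventral replicate 1 also called 0 members. In it toy and fkh, higher in dorsal, and tsh and vvl, higher in ventral, were under 0.05 unadjusted.

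Among 17 members with a mean of at least 1 CPM, tsh left aside, the groups did not overlap for zfh2 and bab2, both higher in ventral, and for none higher in dorsal. The mean of tsh reached 1 CPM only through its 5.83 CPM in ventral replicate 2, so its values above are a description. Over all 7833 genes at that level, with none left aside, 2.52% did not overlap with ventral higher and 4.81% with dorsal higher. Values were higher in ventral libraries for 16 of 22 tested members, tsh among them, and for 49.7% of all genes tested. The direction of tsh followed from how it entered the test, so it adds nothing to that count. It is also part of the medians and counts below. The median log2 fold change was -0.38 for the members and 0.0012 for all genes tested. Leaving out ventral replicates 1 and 2 keeps a single ventral library and was chosen after seeing the data. Of the same 22 members 13 had higher ventral values in that fit and their median was -0.165, while over all 27 members tested in it the count was 13 and the median 0.074. In the 6 fits without 1 library the median of the 22 members ran from -0.594 to -0.144. With no filter on low counts, which brings in all 58 members, 27 had higher ventral values and the median was 0.034. Of 10 neuron markers tested, 4 had an unadjusted p under 0.05, all higher in ventral, namely nSyb (log2 fold change -3.62 ± 1.11), nrv3 (-2.43 ± 0.61), brp (-1.75 ± 0.58) and Syt1 (-1.29 ± 0.40), with adjusted p of 0.99 to 1.00 (edgeR). Among the other neuron markers tested, elav was at 0.042 ± 0.33, fne at -0.30 ± 0.30 and Cadps at -0.32 ± 0.18. VGlut (-1.29 ± 0.70), Rim (-1.52 ± 0.88) and ChAT (-1.95 ± 1.19) lay further toward ventral, each with an unadjusted p above 0.05 (edgeR). Of 5 inner proliferation centre markers tested, 1 had an unadjusted p under 0.05, kn, higher in ventral (-1.35 ± 0.39, edgeR). D (-0.66 ± 0.44) was also higher in ventral, while Fas3 (0.54 ± 0.35), tap (0.33 ± 0.31) and acj6 (0.25 ± 0.48) were higher in dorsal. Each of the 4 neuron markers was highest in ventral replicate 1 or 2, and the part of any marker in the members' values was not tested.

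**Figure D4:**
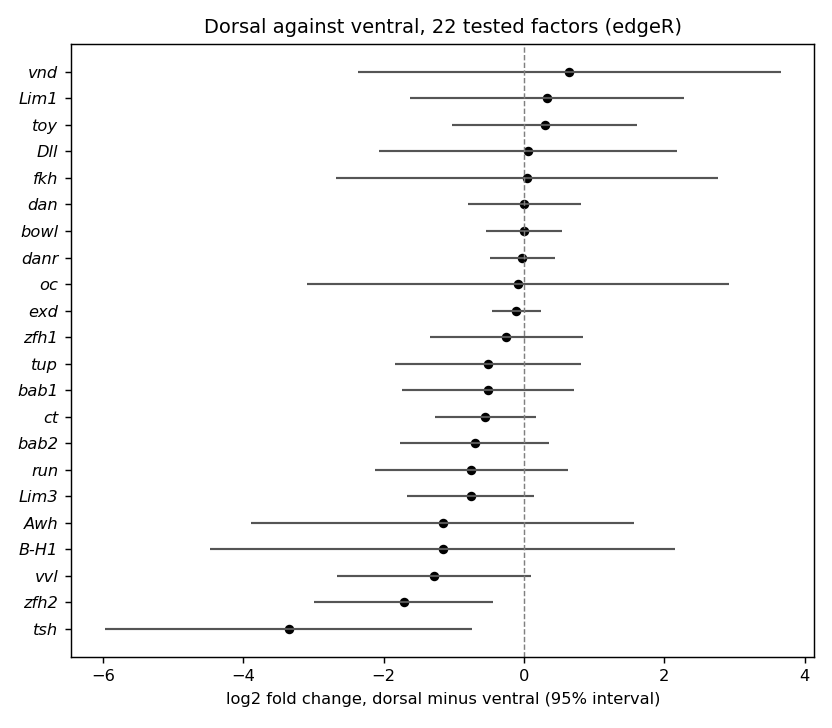
Log2 fold change, dorsal minus ventral (horizontal axis, points), with its 95% interval (lines) for the 22 tested members (vertical axis), from edgeR. The intervals of tsh and zfh2 alone leave out 0 before adjustment, and those of exd, danr and bowl are the narrowest, between -0.54 and 0.54.

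The intervals show what these 6 libraries could resolve. For exd, danr and bowl a change of more than 1.5-fold in either direction lay outside the 95% interval. For fkh, oc, vnd, B-H1, Awh, Dll and Lim1 it spanned at least -1.63 to 1.56 on the log2 scale, so large differences were not detectable at this depth and spread.

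The on members had a wider spread between libraries than the median gene, and most of them were also less abundant per length. The highest library exceeded the lowest by a median of 3.31-fold over the 14 on members (range 1.23 to 16.3), against a median of 1.73-fold over the 6997 genes on. exd, danr, dan and bowl were within 1.76-fold, and zfh2, tup, vvl, toy, zfh1 and Lim3 ranged from 4.26-fold to 16.3-fold.

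Dorsal replicate 3 was the lowest library for 7 of the 14 on members, namely zfh2, tup, zfh1, Lim3, bab2, run and danr, while it was the lowest for 9.12% of all genes on. The summed levels of 3 marker lists were lowest there too, although single markers differed. The 14 neuroepithelial markers were not lowest there: they summed to 2446 CPM, against 1868 to 3090 CPM in the other libraries, and 0 of the 14 had their lowest value in dorsal replicate 3. The summed level of 7 neuroblast markers was 952 CPM in dorsal replicate 3, 1463 and 1869 CPM in the other dorsal libraries and 1286 to 1928 CPM in ventral libraries, with no marker at 0 reads, and 6 of the 7 were lowest in dorsal replicate 3. The 11 neuron markers summed to 562 CPM in dorsal replicate 3, 841 and 1024 CPM in the other dorsal and 702 to 1345 CPM in ventral libraries, with Gad1 at 0 reads in ventral replicate 3. Of the 11, 4 were lowest in dorsal replicate 3 (elav, Syt1, Cadps and fne), whereas nSyb, brp and nrv3 were higher there, at 1.65, 4.42 and 17.6 CPM, than in the other dorsal libraries. For the 6 inner proliferation centre markers the sums were 197 CPM, 433 to 438 CPM and 304 to 375 CPM, with ato at 0 or 1 read, and 4 of the 6 were lowest in dorsal replicate 3. In pooled cells, fewer cells of a type and less RNA per cell cannot be told apart, and the part of these cells in the members' levels was not tested.

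Members in between reached 1 CPM in 1 to 4 libraries, from tsh, rn, Dll, ara and inv with 1 to fkh with 4. Ventral replicate 1 was the top library for 5 of the 12 (fkh, oc, B-H1, Awh and rn) and for 25.9% of all genes in between. Dorsal replicate 2 was the top library for Dll, Lim1 and B-H2, dorsal replicate 3 for vnd and ara, and ventral replicate 2 for tsh and inv. Ventral replicate 1 was also the top library for 6 of 8 glia markers (repo, wrapper, Gs2, nrv2, gcm and loco) and for 5 of 11 neuron markers, among them nSyb with 39.2 CPM there and 0.616 to 6.39 CPM elsewhere. The other glia markers, moody and Eaat1, were highest in dorsal replicates 1 and 2. wrapper had 607 reads in ventral replicate 1 and 217 in dorsal replicate 2, against 10 to 68 elsewhere, and the glial and lamina gene gcm had 282 and 228 reads in the same libraries and 1 to 106 elsewhere. The summed level of all 8 glia markers, which is dominated by nrv2, was 1211 to 1266 CPM in dorsal and 1007 to 1404 CPM in ventral libraries, with none at 0 reads. Of 6 eye disc markers 2 were on, 1 was in between and 3 were off, with sums of 8.13 to 8.74 CPM in dorsal and 5.16 to 8.87 CPM in ventral libraries and with ninaE and lz at 0 reads in some. Of 7 markers of blood, fat body, trachea and muscle Mef2 alone was on, with list sums of 12.6 to 19.3 CPM in dorsal and 14.2 to 20.4 CPM in ventral libraries and with twi and Lsp1beta at 0 reads in 1 library each. Their part in the members' reads was not tested.

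**Figure D5:**
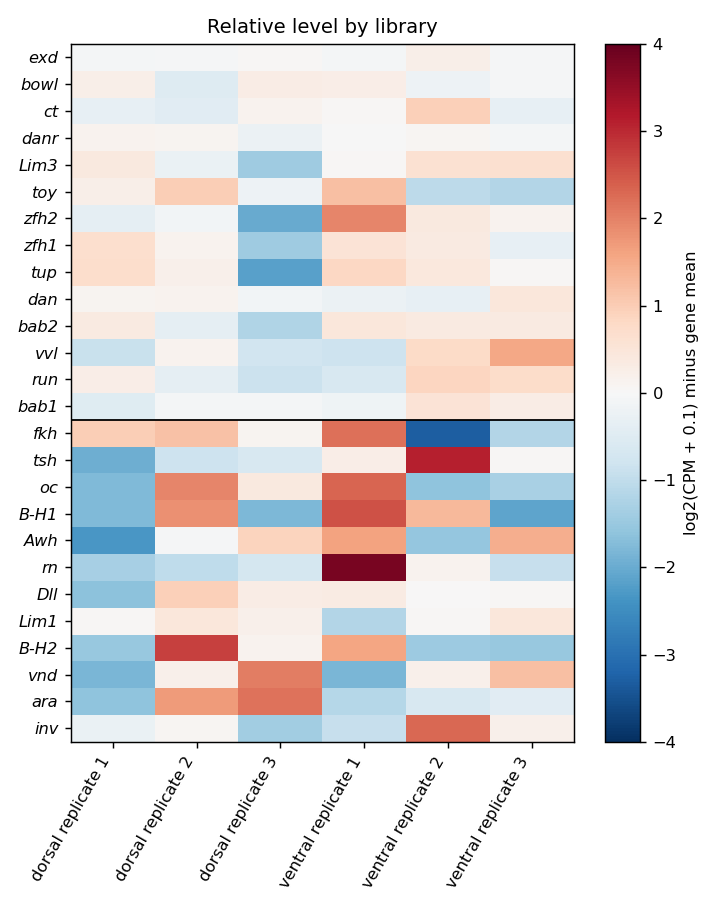
Log2(CPM + 0.1) minus the gene's own mean over 6 libraries (colour scale, red above and blue below the mean) for the 26 members that were on or in between (rows, split by the black line) in each library (columns). Dorsal replicate 3 is blue for zfh2, tup, zfh1 and Lim3, and below the line rn is darkest red in ventral replicate 1 and tsh and inv in ventral replicate 2.

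Of 40 other patterning factors that were matched by symbol, 15 were on (37.5%), 4 in between (10%) and 21 off (52.5%), and none of the 18 tested passed (edgeR). The 8 Hox genes were all off, with 0 to 26 reads per library, as were the gap genes kni and hb and the pair-rule genes eve, ftz and prd. Other pair-rule genes were on, with opa at 29.8 to 115.2 CPM and slp1 at 19.1 to 60.7 CPM, and the gap genes gt, with 1 to 29 reads, and Kr were in between. Also on were the forkhead gene slp2, at 77.4 to 232.9 CPM, and the T-box gene bi, at 54.6 to 275.6 CPM. The off states of the T-box members above therefore do not stand for all T-box genes. Of the 18, 3 had an unadjusted p under 0.05: the zinc finger genes btd and Sp1, higher in dorsal (log2 fold changes 1.26 ± 0.40 and 1.13 ± 0.50), and Kr, higher in ventral (-2.81 ± 0.94). Each had an adjusted p of 1.00 (edgeR). Kr had 1171 reads in ventral replicate 1 and 23 to 165 in each other library.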

How the data were processed

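RNA-seq counts of 3 dorsal and 3 ventral libraries were used. The deposited counts are whole reads per gene with no normalization. The deposited normalized counts are a signal scale: each is the count over a factor of its library, to within 0.01 for all values. Trimmomatic, featureCounts, DESeq2 and the builds dm6 and BDGP6 are named per the submitters' processing notes. Versions, aligner and strand setting are not stated in what was used here. Symbols were found for 17253 of 17559 identifiers (98.3%) and, like merged exon lengths and coordinates, come from Ensembl and FlyBase annotation of BDGP6. The genes h, ap and Dl had no match and were not analysed here by name.

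The members, lists and tests were chosen with earlier results of these data known. The main test was edgeR 4.0.16 (R 4.3.3), a robust quasi-likelihood fit with group alone, TMM factors and filterByExpr. It covered 8707 genes, with Benjamini-Hochberg adjustment and a call at 0.05, and was tested on simulated data. SE was taken as |log2 fold change| / sqrt(F), and 95% intervals use the fit's degrees of freedom. CPM are counts over library totals. Values per library are given for every member on or in between, and ranges for the others. Chi-square tests found every pair of libraries within a group to differ beyond sampling noise. Other settings tried were RLE, upper-quartile and no scaling factors, DESeq2 1.42.0, limma-trend (limma 3.58.1, pseudocount 1), 2 other filters, a replicate block, other limits for on, and fits without each library.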

Additional observations from a re-analysis of the deposited data

How the results depend on the processing

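No member was called in any of 15 alternative fits. Of 330 log2 fold changes of the tested members, 289 kept their direction and 41 changed it, in 13 of 22 members; zfh2, tsh, bab2, vvl, Lim3, tup, run, bab1 and Awh never did. Scaling moved the signs of values near 0: bowl was at 0.00067 with upper-quartile factors and 0.027 with library size alone, danr at 0.014 with library size alone, and dan at -0.0043 with RLE factors and -0.0045 with DESeq2. limma-trend put oc at 0.40 and Dll at -0.38. With ventral replicates 1 and 2 both left out, bowl was at 0.083, ct at 0.12, danr at 0.074, zfh1 at 0.34, dan at -0.42, oc at 2.57, B-H1 at 4.01, Lim1 at -0.24 and vnd at -0.34, and 1 gene of the whole table was called toward ventral. Over all genes DESeq2 gave 9 dorsal and 19 ventral calls, and testing without a filter gave 4 dorsal calls. The cause of these shifts was not tested. Fits without 1 library gave 2 to 3 dorsal and 2 to 6 ventral calls (2 without dorsal replicate 1), 14 members on and 32 to 34 off. With 5 CPM as the limit, or 1 RPKM, 7 members were on in place of 14, namely exd, bowl, ct, danr, Lim3, toy and dan. Ranges over fits without 1 library were -0.18 to 0.0073 for exd, -0.15 to 0.22 for bowl, -0.10 to 0.084 for danr, -0.087 to 1.50 for toy, -0.72 to 0.15 for zfh1, -0.12 to 0.27 for dan, -0.54 to 3.01 for fkh, -1.40 to 2.77 for oc, -0.62 to 0.54 for Dll, -0.065 to 0.73 for Lim1 and -1.03 to 1.63 for vnd, and with no change of sign -0.81 to -0.083 for ct, -1.06 to -0.035 for tup, -4.33 to -0.026 for B-H1, -1.25 to -0.41 for Lim3 and -1.70 to -0.68 for vvl.

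With the replicate number as a block, 2 dorsal and 5 ventral genes but no member were called, and oc (1.19) and Dll (-0.31) changed direction. The deviations of libraries with the same number correlated at 0.003, -0.038 and 0.059, so they were taken to share a number and nothing more, and not every library correlated best with its own number.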
